A study of Homo sapiens with 4 samples.

Results

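Glycine tRNAs were followed along their length by the errors that a nanopore base caller made on them. Every nucleotide of a reference whose name begins with Gly and that has a canonical tRNA position was a member. This gave 223 of 3621 nucleotides, in 3 of 48 tRNA references: Gly-CCC-2-1 with 74 nucleotides, Gly-GCC-2-1 with 74 and Gly-TCC-2-5 with 75. Each is the sole reference for its anticodon. The references were selected by name, but the comparison of levels at positions 6, 10, 26, 34, 37, 38, 48 to 50 and 58 was chosen by their WT summed errors, so WT levels are described here without a test.

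The tRNA came from HCT116, an established line of human colorectal carcinoma cells, either wild type (WT) or with TRMT1L knocked out (TRMT1L KO, here KO). Each genotype had 2 libraries, and the groups differ in no other labelled way. Cells grew in the same medium, and tRNA was purified by ion exchange, stripped of amino acids, joined to adaptors and opened by reverse transcription before the RNA strand itself was read (Nano-tRNAseq). The labels do not say whether the knockout is 1 clone, or whether replicates came from separate cultures, so a p-value reflects library-to-library spread alone, and that spread may be technical. TRMT1L RNA and protein are not part of these values, so they hold no direct check of the knockout.

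Glycine tRNAs carry glycine to the ribosome and read the GGN codons. Human cells have isoacceptors with the anticodons GCC, CCC and TCC (UCC in the RNA), each encoded by several genes. The human gene table of RefSeq (GRCh38.p14) lists 30 glycine tRNA genes with an anticodon, of which 13 are GCC, 9 are TCC and 8 are CCC. It names the 3 genes of these references TRG-CCC2-1, TRG-GCC2-1 and TRG-TCC2-5. Like other tRNAs they are heavily modified after transcription. Among the writers known in human cells, THUMPD3 makes N2-methylguanosine at position 6, TRMT11 makes it at position 10, TRMT1 makes dimethylguanosine at position 26, DNMT2 (TRDMT1) makes 5-methylcytidine at position 38 of some tRNAs including tRNA-Gly-GCC, NSUN2 makes 5-methylcytidine at positions 48 to 50, and TRMT6 with TRMT61A makes N1-methyladenosine at position 58. TRMT1L is a homologue of TRMT1.

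A modified nucleotide can disturb the pore current, and the base caller then reports a wrong base (mismatch), skips a base (deletion) or adds one (insertion). The summed error is the sum of these 3 rates and is given in percent of reads. Differences are in percentage points, KO minus WT. An error rate names no modification and gives no stoichiometry, and it also depends on the sequence around a nucleotide. The sheets hold no bases and state no read depth, so the references cannot be matched by sequence and values carry no counting interval. The name of a reference is the only label of its identity.

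The summed error averaged over all canonical positions was 26.1% and 24.99% for WT Gly-CCC-2-1, and 26.4% and 27.1% for the same reference in KO. For Gly-GCC-2-1 it was 26.1% and 25.5% in WT and 26.2% and 26.9% in KO. For Gly-TCC-2-5 it was 26.5% and 25.9% in WT and 27.6% and 27.4% in KO. In WT these averages ranked 44, 43 and 42 of 48 from the highest, so glycine references lay near the low end, where the other 45 ran from 22.5% to 34.8% with a median of 32.3%. In the 3' adaptor behind the glycine references, which is not tRNA, the average was 26.3% and 23.2% in WT and 22.7% and 24.4% in KO.

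The references differed in the kind of error. In Gly-CCC-2-1, mismatches made up 59.7% and 59.3% of the WT summed error, and deletions 31.0% and 31.8%. In Gly-TCC-2-5 the split was similar, with 57.6% and 56.8% mismatches and 31.1% and 32.2% deletions. Gly-GCC-2-1 had a larger share of deletions, 41.5% and 40.3%, beside 50.3% and 51.03% mismatches.

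**Figure D1:**
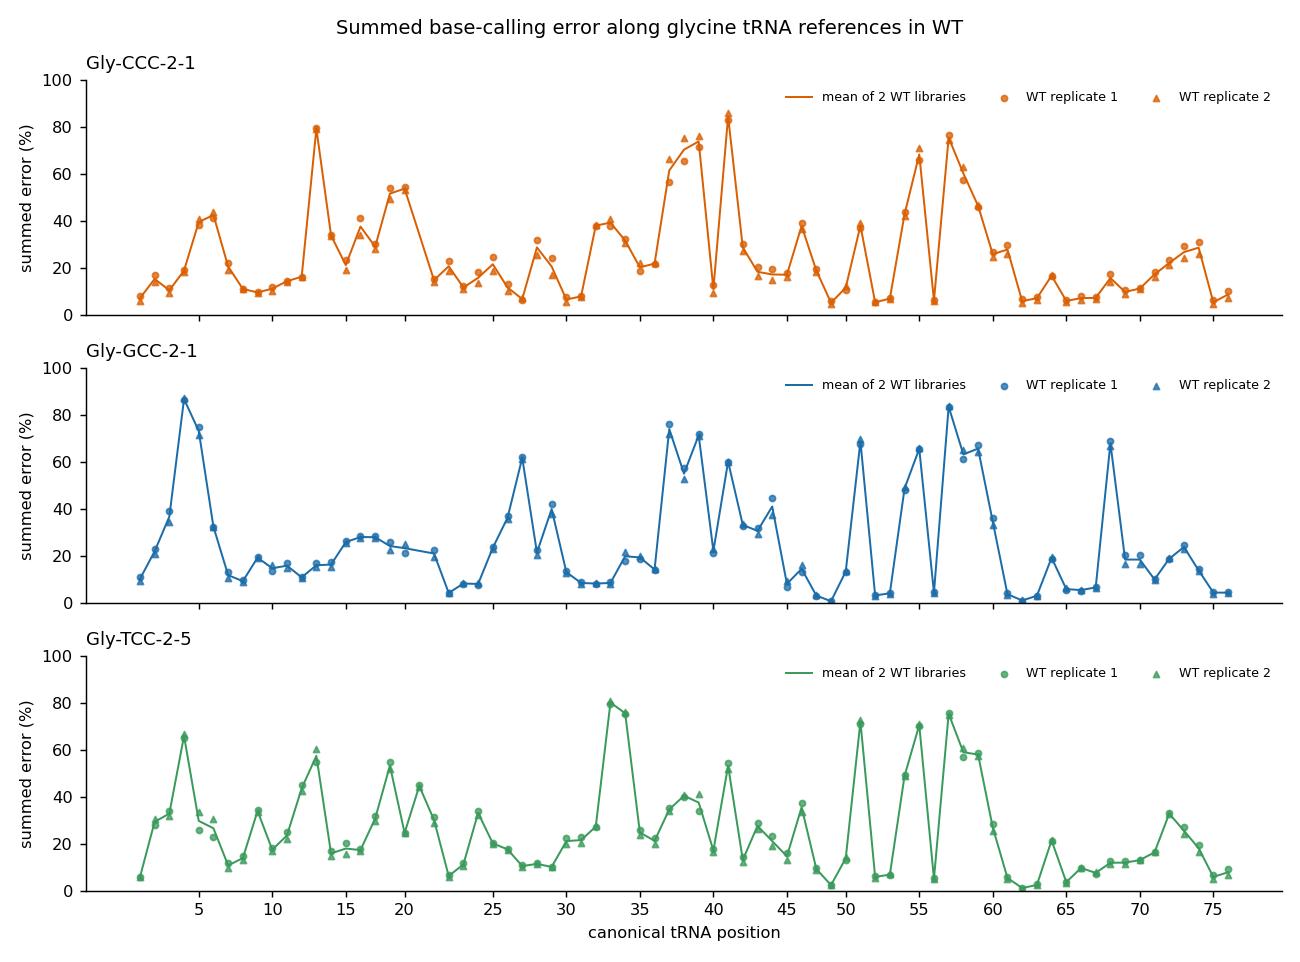
Summed base-calling error (%, vertical axis) at each canonical tRNA position (horizontal axis) of the 3 glycine references in WT; the line is the mean of 2 libraries and the points are the single libraries. All 3 references are high at positions 55, 57 and 58, while the peaks at positions 4, 13, 27, 33 and 34 belong to 1 or 2 of them.

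The 3 glycine tRNAs were close to each other in the T arm and far apart in the anticodon arm. The range between the highest and the lowest of the 3 WT means had a median of 4.81 points over the 17 positions of the T arm and of 29.7 points over the 17 of the anticodon arm. Across T-arm positions, the WT profiles correlated at 0.934 between Gly-CCC-2-1 and Gly-GCC-2-1, 0.929 between Gly-CCC-2-1 and Gly-TCC-2-5 and 0.992 between Gly-GCC-2-1 and Gly-TCC-2-5. Across the anticodon arm the same values were 0.628, 0.490 and -0.0186. These correlations run over 17 positions of the same libraries and are given as descriptions. Within the T arm the widest ranges were 34.1 points at position 51, 24.1 points at position 61 and 19.3 points at position 59, with Gly-CCC-2-1 the lowest at positions 51 and 59 and the highest at position 61.

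Positions 55, 57 and 58 of the T loop carried high errors in every glycine reference, as in most other references. The WT medians of the other 45 were 74.0%, 67.0% and 72.5%. All 3 glycine means lay below the median at positions 55 and 58 and above it at position 57. Position 55, where tRNAs usually hold pseudouridine, had WT means of 68.2% ± 3.64 in Gly-CCC-2-1, 65.6% ± 0.343 in Gly-GCC-2-1 and 70.5% ± 0.750 in Gly-TCC-2-5 (SD, n = 2). Position 57 had 75.3% ± 1.60, 83.5% ± 0.448 and 75.3% ± 0.623. At position 58, the site of N1-methyladenosine, Gly-CCC-2-1 read 57.2% and 63.1% in WT, Gly-GCC-2-1 61.2% and 65.1% and Gly-TCC-2-5 57.002% and 60.9%. Gly-CCC-2-1 overlapped both others at position 58, Gly-GCC-2-1 lay just above Gly-TCC-2-5, and the ranks among 48 references were 38, 33 and 39 in this order. Position 54, commonly ribothymidine, was lower at 42.8%, 48.6% and 48.9%.

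The anticodon loop separated them. At position 34, the first letter of the anticodon, Gly-TCC-2-5 read 75.1% and 76.1% in WT, Gly-CCC-2-1 32.4% and 30.7% and Gly-GCC-2-1 17.9% and 21.8%. The 3 references did not overlap, and Gly-TCC-2-5 ranked 3 of 48. The error of Gly-TCC-2-5 at this position was 36.5% mismatch and 38.5% deletion. In some tRNAs, uridine at this wobble position carries a side chain made by Elongator and ALKBH8. At position 33 just before it, Gly-TCC-2-5 read 79.6% and 80.6%, the highest mean of 48 references. Val-TAC-1-1 was close, with a WT mean of 79.7%. Gly-GCC-2-1 read 8.84% and 8.02% at position 33 and Gly-CCC-2-1 37.6% and 40.7%. Deletions made up 49.2% of reads there in Gly-TCC-2-5, the second highest deletion rate of the 48 references at that position.

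Downstream of the anticodon the order turned. At position 37, Gly-GCC-2-1 read 76.03% and 71.8% in WT and Gly-CCC-2-1 56.5% and 66.3%, both above Gly-TCC-2-5 with 35.2% and 34.1%. At position 38, the DNMT2 site, Gly-CCC-2-1 read 65.4% and 75.1%, the highest mean of 48 references, Gly-GCC-2-1 57.2% and 52.6%, and Gly-TCC-2-5 40.04% and 40.8%. The replicates of Gly-CCC-2-1 were far apart there (SD 6.83 points, n = 2), but no libraries of different glycine references overlapped. Trp-CCA-4-1 was close to Gly-CCC-2-1 at position 38, with WT means of 69.6% and 70.2%. At position 39, where PUS3 makes pseudouridine in many tRNAs, Gly-CCC-2-1 and Gly-GCC-2-1 ranked 2 and 3 of 48 with overlapping libraries, at 73.7% ± 3.29 and 71.3% ± 0.710 (SD, n = 2), while Gly-TCC-2-5 was at 37.6% ± 5.20.

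At position 39, the similar totals of Gly-CCC-2-1 and Gly-GCC-2-1 were made of different errors. Gly-GCC-2-1 had the highest deletion rate of 48 references at each of positions 37, 38 and 39, with 55.7%, 41.7% and 53.96% of reads. In Gly-CCC-2-1 at position 39, mismatches made up 61.1% of reads and deletions 11.3%. At position 41 in the anticodon stem, Gly-CCC-2-1 had the highest summed error of the 48, 84.4% ± 2.06, of which 68.7% of reads were mismatches.

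**Figure D2:**
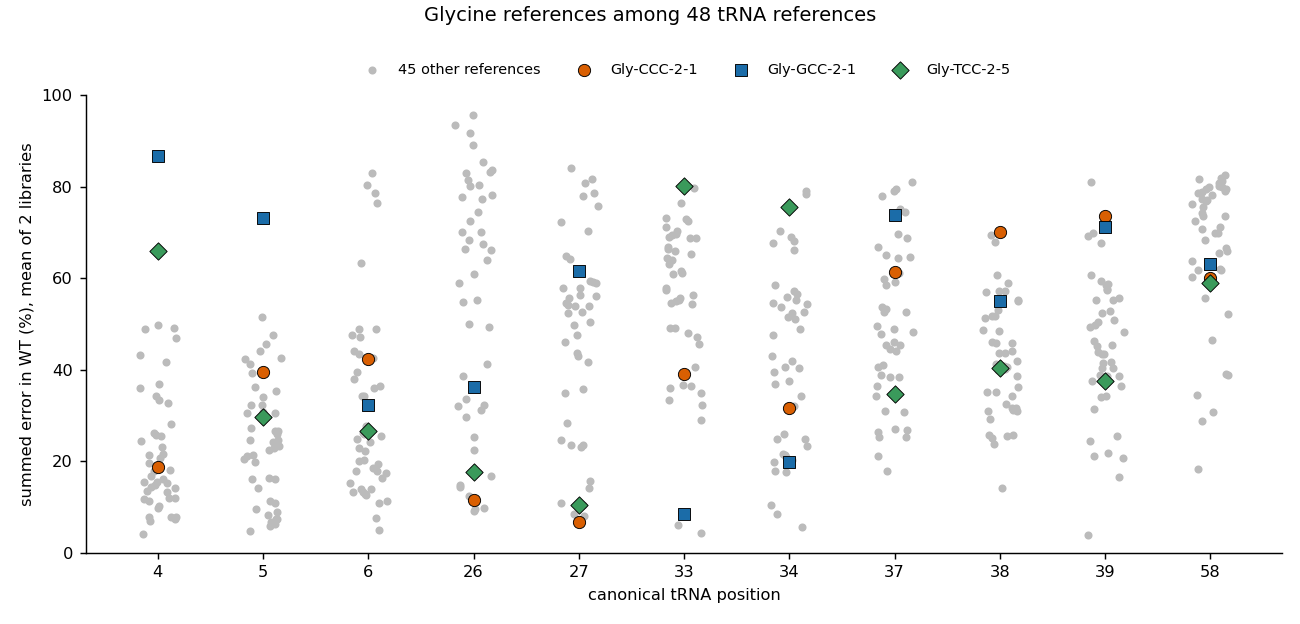
Mean summed error of 2 WT libraries (%, vertical axis) of 48 tRNA references at 11 canonical positions (horizontal axis); grey points are the 45 other references and coloured symbols the glycine references. Gly-GCC-2-1 lies above all others at positions 4 and 5. Gly-TCC-2-5 does so narrowly at position 33, as does Gly-CCC-2-1 at position 38. The 3 lie together at position 58.

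The acceptor stem held the other large contrasts. At position 4, Gly-GCC-2-1 read 86.3% and 87.0% in WT and Gly-TCC-2-5 65.1% and 66.8%, the 2 highest of 48 references, while Gly-CCC-2-1 read 19.2% and 18.4%. The other 45 references ran from 4.21% to 49.7%. In yeast, Trm13 methylates the ribose at position 4 of tRNA-Gly-GCC, among other tRNAs. At position 5, Gly-GCC-2-1 was again the highest, at 74.7% and 71.6%, mostly mismatches (57.2% of reads). Its partner in the stem, position 68, read 68.9% and 66.8% in Gly-GCC-2-1, rank 2 of 48, against 15.6% ± 2.23 in Gly-CCC-2-1 and 11.9% ± 0.776 in Gly-TCC-2-5. At position 6, the THUMPD3 site, WT libraries read 41.2% and 43.7% in Gly-CCC-2-1, 32.3% and 32.4% in Gly-GCC-2-1 and 22.8% and 30.4% in Gly-TCC-2-5, ranks 13, 20 and 22.

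At positions 26, 10 and 48 to 50, named above for TRMT1, TRMT11 and NSUN2, the WT means of all 3 glycine references lay below the median of the other 45. Whether these glycine tRNAs carry the marks was not tested. At position 26, Gly-CCC-2-1 read 12.9% and 10.2% in WT, Gly-TCC-2-5 17.7% and 17.5% and Gly-GCC-2-1 36.8% and 35.5%, against a median of 64.04%. At position 10, Gly-CCC-2-1 read 11.9% and 10.3%, Gly-GCC-2-1 13.4% and 15.9% and Gly-TCC-2-5 18.04% and 16.96%, against a median of 22.1%. At position 49, Gly-GCC-2-1 had the lowest summed error of the 48 references, 0.550% and 0.725%. It was also next to last at position 48, with 2.75% and 3.39%, while Gly-CCC-2-1 read 19.4% and 18.2% and Gly-TCC-2-5 9.75% and 8.89%. At position 50 the 3 references lay close together, at 11.5% ± 1.25, 13.3% ± 0.210 and 13.8% ± 0.796 (SD, n = 2), and in Gly-GCC-2-1 and Gly-TCC-2-5 most of it was insertion, 8.16% and 8.64% of reads.

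**Figure D3:**
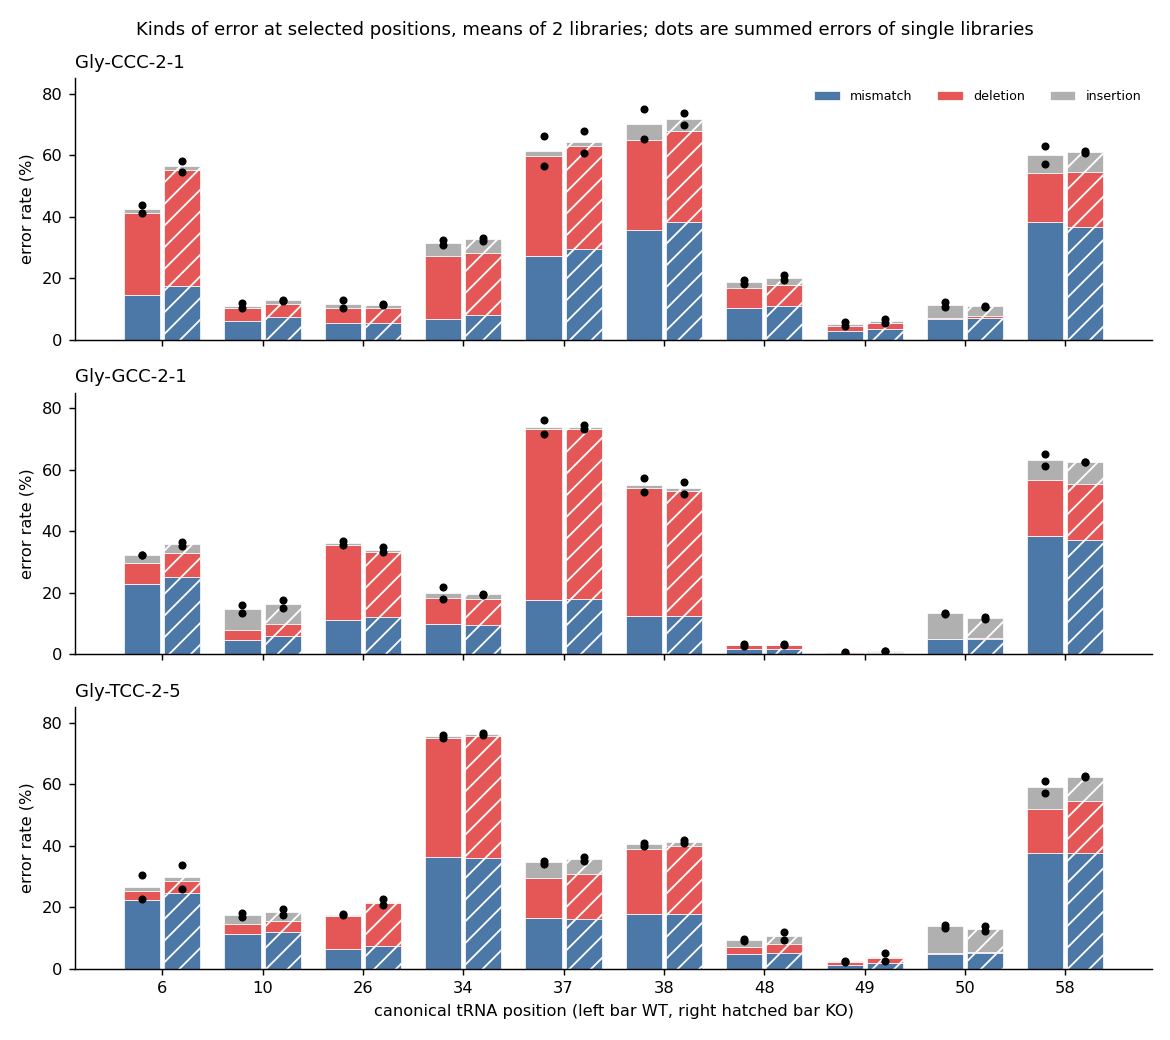
Error rate (%, vertical axis) at 10 canonical positions of each glycine reference, stacked by kind; the plain bar is the mean of 2 WT libraries, the hatched bar the mean of 2 KO libraries, and dots are the summed errors of single libraries. Position 34 is high in Gly-TCC-2-5 alone, position 37 of Gly-GCC-2-1 is mostly deletion, and the rise in KO at position 6 of Gly-CCC-2-1 is in the deletion segment.

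The level differences were also tested in the KO libraries, which were not used to choose these positions for their WT levels. KO and WT cells are the same line, and the test took its spread from both groups of libraries. A pass therefore gives no independent support to the WT differences. Each pair of references was compared at the 74 positions that all 3 share, 222 comparisons in all, with limma on differences taken within a library and Benjamini-Hochberg adjustment over the 222. In the summed error 169 of 222 passed at an adjusted p under 0.05, or 76.1%. This high share over the glycine pairs is the background for any single position, and pairs of other references were not tested. The share was 86.3% of 51 in the anticodon arm and 66.7% of 51 in the T arm, where the median absolute differences were 11.8 and 3.15 points. By kind, 168 comparisons passed in mismatches (75.7%), 161 in deletions (72.5%) and 156 in insertions (70.3%). The mismatch count was 89 without KO replicate 1 and 103 without KO replicate 2. Between Gly-CCC-2-1 and Gly-GCC-2-1, 61 of 74 passed, all in the direction of the WT means. Between Gly-CCC-2-1 and Gly-TCC-2-5, 53 passed, 52 of them in the WT direction, and between Gly-GCC-2-1 and Gly-TCC-2-5, 55 passed, 54 of them in the WT direction.

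The same limit holds for the single positions given here, which were named for their WT levels. At position 34 in KO, Gly-TCC-2-5 exceeded Gly-GCC-2-1 by 56.9 points (limma adjusted p = 1.38e-13) and Gly-CCC-2-1 by 43.7 points (limma adjusted p = 3.33e-12). Gly-GCC-2-1 was 66.4 points above Gly-CCC-2-1 at position 4 (limma adjusted p = 2.64e-14) and 18.2 points above Gly-TCC-2-5 (limma adjusted p = 4.9e-09). At position 38 every pair passed, with Gly-CCC-2-1 above Gly-GCC-2-1 by 17.8 points (limma adjusted p = 0.0232). At position 37 the difference of 9.66 points between Gly-GCC-2-1 and Gly-CCC-2-1 did not pass (limma adjusted p = 0.109), nor did any pair at positions 50 and 58, where the differences were at most 2.17 points. The values differ between molecules of different sequence, and what share of a difference follows the sequence was not tested.

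**Figure D4:**
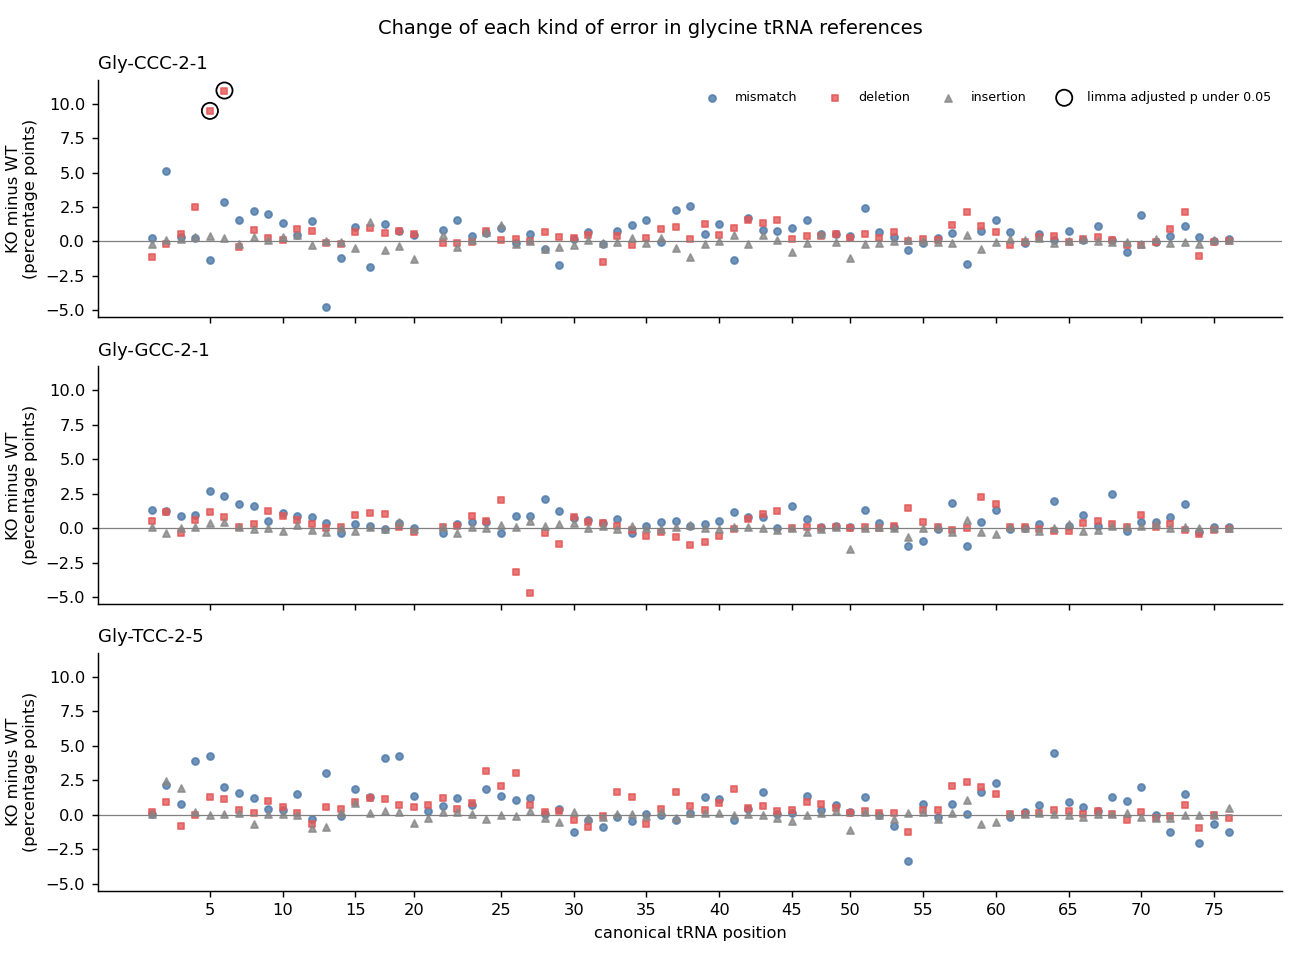
Change of mismatch, deletion and insertion rates (KO minus WT, percentage points, vertical axis; means of 2 libraries each) along the canonical positions (horizontal axis) of each glycine reference; open circles mark limma adjusted p under 0.05. The 2 circled points are the deletions at positions 5 and 6 of Gly-CCC-2-1.

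Between KO and WT, the one glycine nucleotide that passed in the summed error was position 6 of Gly-CCC-2-1, which was higher in KO. It read 41.2% and 43.7% in WT and 54.6% and 58.2% in KO, so both KO libraries lay above both WT libraries. The mean went from 42.4% ± 1.80 to 56.4% ± 2.50 (SD, n = 2 each), a change of 13.98 points and the largest of 48 references at that position (limma adjusted p = 0.0236 over 3621 positions). This rise was known from earlier results of these data, so its p is no independent support. Among all references 0.221% of positions passed as higher in KO and 0.608% passed in either direction, and 1 of the 223 glycine nucleotides passed. After centring the libraries on their medians, the change of 12.7 points missed the threshold (limma adjusted p = 0.0696). With 2 libraries against 2, an exact permutation test cannot go below a two-sided p of 0.333.

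Most of the rise at position 6 was in deletions. They read 24.0% and 29.3% of reads in WT and 35.9% and 39.2% in KO, a change of 10.9 points (limma adjusted p = 0.0121). Mismatches there read 16.0% and 13.4% in WT and 17.7% and 17.3% in KO, and this difference of 2.82 points did not pass (limma adjusted p = 0.723). At the neighbouring position 5, deletions of Gly-CCC-2-1 read 21.6% and 25.7% in WT and 30.6% and 35.7% in KO, a change of 9.47 points, again the largest of 48 references at that position (limma adjusted p = 0.0324). These 2 were the only glycine deletions that passed, beside a background of 0.58% of positions passing as higher in KO and 1.19% in either direction. The summed error at position 5 read 37.99% and 40.9% in WT and 44.3% and 51.5% in KO and did not pass (limma adjusted p = 0.335).

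Single libraries decide the deletion results. Without WT replicate 1, the change at position 6 was 8.30 points and at position 5 it was 7.45 points, and neither passed (limma adjusted p = 0.116 and 0.201). Without KO replicate 2, they were 9.26 and 6.91 points, and neither passed (limma adjusted p = 0.154 and 0.384). A deletion inside a run of like bases can be placed at any base of the run. The sheets hold no bases, so whether positions 5 and 6 are separate measurements was not tested.

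The other glycine references did not pass at position 6. At position 6, Gly-GCC-2-1 read 32.3% and 32.4% in WT and 35.3% and 36.5% in KO, and Gly-TCC-2-5 read 22.8% and 30.4% in WT and 33.9% and 25.8% in KO. Their differences were 3.58 and 3.24 points (limma adjusted p = 0.644 and 0.829), and the groups overlapped in Gly-TCC-2-5. Among the 45 other references the change at position 6 ran from -2.20 to 8.90 points, with a median of 0.792. The difference of changes was itself tested: at position 6 it was 10.4 points between Gly-CCC-2-1 and Gly-GCC-2-1, the smallest adjusted p of the 222 comparisons but not past the threshold (limma adjusted p = 0.0771). Against Gly-TCC-2-5 it was 10.7 points (limma adjusted p = 0.918). The rise was therefore not shown to be particular to Gly-CCC-2-1 among glycine tRNAs. None of the 222 differences of changes passed in limma for any kind of error (0%), and pairs of other references were not tested. At an unadjusted p under 0.05 in limma there were 9 in the summed error, 7 in mismatches, 11 in deletions and 16 in insertions. That threshold makes no allowance for the 222 comparisons of each kind, so these counts are not calls. Without WT replicate 2, the counts that passed were 1 in the summed error (position 6, Gly-CCC-2-1 against Gly-GCC-2-1), 3 in mismatches and 7 in deletions.

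**Figure D5:**
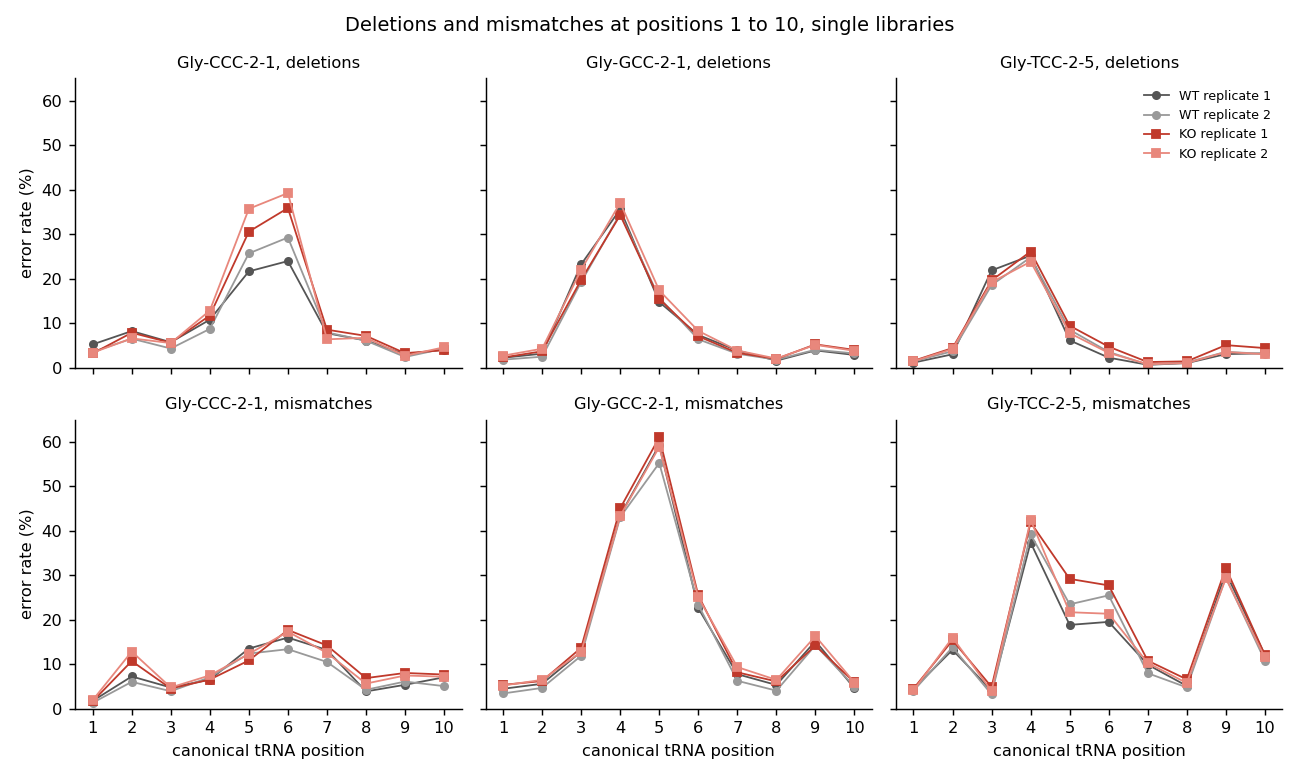
Deletion rates (upper panels) and mismatch rates (lower panels), both in % of reads, at canonical positions 1 to 10 of the glycine references in single libraries. In Gly-CCC-2-1 the deletion rates of the KO libraries lie above those of the WT libraries at positions 5 and 6, while Gly-GCC-2-1 and Gly-TCC-2-5 peak at position 4 in all 4 libraries.

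Outside positions 5 and 6, no kind of error passed at any glycine nucleotide. Mismatches had 0 calls in limma beside a background of 0.552%, and insertions had 0 calls beside a background of 0.0829%. An unadjusted p under 0.05 in limma was met by 11 of 223 glycine nucleotides in mismatches and 1 of 223 in insertions. Over all positions it was met by 253 of 3621 in mismatches and 206 of 3621 in insertions. The mismatch with the largest change was position 2 of Gly-CCC-2-1, at 6.66% in WT and 11.8% in KO (means of 2 libraries; limma adjusted p = 0.0858). It passed without KO replicate 1, with a change of 6.20 points (limma adjusted p = 0.0124).

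In the summed error, both KO libraries lay above both WT libraries at 81 of 223 glycine nucleotides (36.3%) and below at 10, against 30.9% and 7.93% of all positions. Over the glycine nucleotides the median change was 1.03 points, against 0.818 over all positions. With libraries centred on their medians, the direction turned: the median change was -0.241 points over the glycine nucleotides and -0.448 over all positions, and 93 of 223 glycine nucleotides had a difference above 0, against 176 without centring. The counts and averages that follow are without centring. By reference, 20 lay above and 2 below in Gly-CCC-2-1, 27 and 3 in Gly-GCC-2-1, and 34 and 5 in Gly-TCC-2-5. In the acceptor stem 21 of 42 glycine nucleotides lay above and 0 below, where 36.5% of all acceptor-stem positions lay above. In the variable region 1 of 12 lay above and 0 below, and at the 3' end 1 of 12 lay above and 1 below, where 26.3% and 16.7% of all such positions lay above. In mismatches 81 lay above and 9 below (25.4% and 10.9% of all positions), in deletions 74 and 11 (35.5% and 7.01%), and in insertions 38 and 32 (16% and 17.2%). The average change per reference was 1.22 points in Gly-CCC-2-1, 0.749 in Gly-GCC-2-1 and 1.33 in Gly-TCC-2-5, inside the range of -0.520 to 1.66 points of the other references.

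Positions 26 and 27 were examined because the series assigns to TRMT1L dimethylguanosine at position 27 of tyrosine tRNA, next to the TRMT1 site. No glycine reference passed at either. At position 27, Gly-GCC-2-1 read 62.1% and 61.2% in WT and 58.5% and 58.3% in KO, with both KO libraries below both WT libraries, and the difference of -3.27 points did not pass (limma adjusted p = 0.664). Most of its error there was deletion, 43.3% of reads in WT and 38.7% in KO, and the WT rate was the highest of 48 references. Gly-CCC-2-1 had the lowest summed error of the 48 at position 27, 6.38% and 6.93% in WT and 7.10% and 7.49% in KO. Gly-TCC-2-5 read 10.8% and 10.2% in WT and 13.4% and 11.96% in KO, which did not pass (limma adjusted p = 0.613). At position 26, Gly-GCC-2-1 read 33.2% and 34.8% in KO, below both WT libraries, and Gly-TCC-2-5 20.8% and 22.6%, above both. These changes of -2.16 and 4.06 points did not pass (limma adjusted p = 0.839 and 0.458), nor did the difference between them of -6.22 points (limma adjusted p = 0.369). In deletions the difference of changes between Gly-GCC-2-1 and Gly-TCC-2-5 was -6.21 points at position 26 and -5.40 points at position 27, and neither passed (limma adjusted p = 0.202 and 0.475). Without WT replicate 2 both passed, at -7.47 and -7.18 points (limma adjusted p = 0.00147 and 0.024). Gly-CCC-2-1 overlapped, at 11.6% and 11.3% in KO.

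In the D loop of Gly-TCC-2-5, position 18 read 32.003% and 29.5% in WT and 35.9% and 36.8% in KO, the largest change of the references at that position (5.61 points, limma adjusted p = 0.448). Its neighbour position 19 read 54.7% and 51.8% in WT and 57.8% and 59.1% in KO (limma adjusted p = 0.508). Positions 18 and 19 are commonly guanosines that pair with the T loop. Position 2 differed upward in 2 references: Gly-TCC-2-5 read 28.2% and 30.5% in WT and 34.03% and 35.8% in KO (limma adjusted p = 0.448), and Gly-CCC-2-1 16.7% and 13.7% in WT and 19.8% and 20.8% in KO (limma adjusted p = 0.319). In Gly-GCC-2-1 the largest upward difference was 4.21 points at position 5, with 77.6% and 77.2% in KO (limma adjusted p = 0.523). In each of these the KO libraries lay above the WT libraries, and none passed.

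The largest differences downward were at position 13 of Gly-CCC-2-1 and position 54 of Gly-TCC-2-5. Position 13 of Gly-CCC-2-1 read 79.3% and 79.0% in WT and 72.6% and 76.1% in KO (limma adjusted p = 0.448). Position 54 of Gly-TCC-2-5 read 49.1% and 48.7% in WT and 44.2% and 44.7% in KO, the most negative change of 48 references at that position (limma adjusted p = 0.560). Neither passed, though the groups did not overlap. Some positions of high WT error moved little: position 34 of Gly-TCC-2-5 read 76.1% and 76.7% in KO, and position 38 of Gly-CCC-2-1 read 69.9% and 73.8% in KO, changes of 0.826 and 1.61 points. Others moved more, among them position 57 of Gly-TCC-2-5 by 3.01 points and position 58 of Gly-TCC-2-5 by 3.55 points, with KO above WT in both (limma adjusted p = 0.644 and 0.664). None of these passed.

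Over the 74 shared positions, the WT profile of each glycine reference was set against those of all 47 other references by Pearson correlation, as a description. Gly-CCC-2-1 was most like Gly-TCC-2-5 (0.681), then Pro-CGG-2-1 (0.635) and Cys-GCA-3-1 (0.604). The reference most like Gly-GCC-2-1 was Gly-CCC-2-1 (0.599), followed by Gly-TCC-2-5 (0.584) and Pro-CGG-2-1 (0.507). After Gly-CCC-2-1, Gly-TCC-2-5 was most like Pro-AGG-1-1 (0.635) and Pro-TGG-3-3 (0.629). The median over the 47 was 0.435, 0.357 and 0.431. The points of these correlations share libraries.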

How the data were processed

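The values the authors deposited are a fraction of reads in error, between 0 and 1, for each library, reference and nucleotide, in sheets of mismatch, deletion and insertion, per the file headers, with a sheet of canonical positions. BWA, SAMtools and bedtools are named in the submitters' processing notes. Nothing in those sources names the base caller, the read filters, the reference build or the depth.

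The 3 rates were summed per library, and limma 3.58.1 under R 4.3.3 (lmFit, then eBayes with trend and robust settings) tested the arcsine square root, for the sum and each kind apart, with Benjamini-Hochberg adjustment over 3621 positions and a threshold of 0.05. Pairs of glycine references were tested with limma (robust, no trend) on within-library differences. Tables were made in Python 3.11.15 with pandas 2.3.3. The KO against WT tests were checked on simulated data of 3621 positions. False calls were 2 in the summed error, 3 in mismatches, 4 in deletions and 4 in insertions. There, the KO against WT test of the summed error called 1.49% of differences of 5 points, 34.3% of 10 points and 83.3% of 20 points. At 5 points it called 31.3% in mismatches, 52.2% in deletions and 88.1% in insertions. A summed-error difference near 5 points would thus rarely pass, and missing the threshold does not show that it is absent. No value was dropped or imputed.

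The members and lists of positions were chosen with earlier results of these data known. Named positions are those of the comparison rule, the 5 highest in WT and the 3 largest changes in each direction per reference; others were singled out after their values were seen. Alternatives were untransformed fractions, log odds, no trend, no robust setting, centred libraries, a filter on low error, no tRNA ends, sums without insertions, a replicate block and leaving out each library. The deviations of same-numbered replicates correlated at -0.251 over 3621 positions. This gave no sign of a pairing by number, though it cannot tell which libraries were handled together. The negative sign means that libraries of opposite number were weakly alike, for a reason that was not tested.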

Additional observations from a re-analysis of the deposited data

How the results depend on the processing

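For the summed error, the count of 1 glycine nucleotide called between KO and WT went to 0 with libraries centred on the median and was 1 under the other settings run. For deletions, with 2 called, the count was 1 with no trend, 1 with no robust setting, 1 with centred libraries and from 0 to 2 with 1 library left out. It was position 5 of Gly-CCC-2-1 that missed the threshold without the trend (limma adjusted p = 0.0653), without the robust setting (limma adjusted p = 0.0611) and with centring (limma adjusted p = 0.0851). For mismatches, with 0 called, the count ran from 0 to 1 with 1 library left out. The differences of KO changes between glycine references, 0 in each kind, ran from 0 to 1 in the summed error, 0 to 3 in mismatches and 0 to 7 in deletions with 1 library left out, where the highest counts came without WT replicate 2. The 168 mismatch differences between references in the KO libraries ran from 89 to 174 with 1 library left out. Position 50 of Gly-GCC-2-1, with -1.42 points and no call, stood at 0.0694 points with insertions left out of the sum.

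The fit with the replicate block called 1 mismatch (position 2 of Gly-CCC-2-1) and 6 deletion differences of changes, 4 of them at positions 5 and 6 of Gly-CCC-2-1 against the others and 2 at positions 26 and 27 of Gly-GCC-2-1 against Gly-TCC-2-5 (limma adjusted p = 0.00119 and 0.0454). It moved no other count of KO against WT calls or of differences of changes by more than 1.5 times. It was not run for the level differences in the KO libraries. With the replicate numbers crossed, a pairing chosen after the data were seen, 1 mismatch and 0 deletions were called. For single positions, 276 values under an alternative kept their direction and side of the threshold, 10 kept the direction and lost the call, and 1 turned its sign. With 1 library left out, the lone library of a group is assumed to vary like the other group. The cause of the changes was not tested. Depth is not stated, so what depth limits is unknown. Precision is limited by 2 libraries per group.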
